A study of Mus musculus with 2 samples.

Results

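Mir126a and Mir126b are microRNA genes that lie on opposite strands of one site inside Egfl7, a gene whose secreted product is made mainly by endothelial cells. They were selected by their GENCODE M21 symbols, matched through the Ensembl gene identifiers of the count files, and are 2 of the 2202 microRNA genes counted. The counts come from microRNA sequencing of the adrenal gland in B6CASTF1/J mice, which are F1 hybrids of C57BL/6J and CAST/EiJ. Both animals were males of 36 days, and each of the 2 biological replicates gave 1 library. The labels give no treatment and no second condition, number the animals separately and list a single donor record for both. Differences between the libraries therefore measure only the spread between these samples, part of which may be technical.

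A microRNA is cut from a hairpin in a longer transcript, and 1 arm of the hairpin is usually loaded into an Argonaute protein, where bases 2 to 8 of the mature strand (the seed) pair with target messages. miR-126 is the microRNA most closely tied to endothelium. In mouse and zebrafish it is needed for vascular integrity and sustains signalling from vascular endothelial growth factor by restraining the inhibitors Spred1 and Pik3r2. It is also made in haematopoietic progenitors and carried by platelets. The adrenal gland is a densely vascular organ in which each cord of steroid-producing cells borders on sinusoidal capillaries.

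The hairpins are shown first because each is nearly the mirror of the other strand. Both matched RefSeq by symbol (GRCm38.p6), and the GENCODE M21 sequences are identical to them. Mir126a (ENSMUSG00000065540.1) lies on the plus strand at chr2:26591357-26591429, and Mir126b (ENSMUSG00000105799.1) on the minus strand at chr2:26591363-26591420. The capitals mark the mature strands shown further on. The other arm of Mir126a gives miR-126a-5p.

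Mir126a hairpin: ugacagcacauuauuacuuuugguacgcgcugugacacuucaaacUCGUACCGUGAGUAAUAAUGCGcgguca

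Mir126b hairpin: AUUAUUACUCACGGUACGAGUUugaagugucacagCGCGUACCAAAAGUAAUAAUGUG

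The whole 58-base Mir126b hairpin is the reverse complement of positions 7 to 64 of the 73-base Mir126a hairpin. Mir126a therefore extends past it by 6 bases at one end and 9 at the other. The mature strands are given next, with the seed in capitals, because the seed sets which messages a microRNA can pair with.

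mmu-miR-126a-3p: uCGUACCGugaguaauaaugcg

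mmu-miR-126b-3p: cGCGUACCaaaaguaauaaugug

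mmu-miR-126b-5p: aUUAUUACucacgguacgaguu

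miR-126a-3p and miR-126b-5p lie on opposite strands of the same arm and are complementary over 19 bases. miR-126b-3p comes from the opposite strand of the other arm, yet its seed is that of miR-126a-3p moved by 1 base: the hexamer CGUACC fills bases 2 to 7 of miR-126a-3p and bases 3 to 8 of miR-126b-3p. With that shift, 17 of 22 compared bases are identical. Among 1738 mature mouse microRNAs in the RefSeq table, only these 2 hold the hexamer within bases 2 to 8, and none of the 3 complete seeds occurs in a second entry. The counts refer to hairpin genes, so none of the values below separates the arms.

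Of 19 annotated Egfl7 transcripts, 9 span the Mir126a hairpin, on the same strand. In 8 of them it lies in an intron, 293 bases after the preceding exon. In 6 of these, Egfl7-201 among them, the intron measures 600 bases and the next exon begins 234 bases downstream. In the other two, Egfl7-203 and Egfl7-219, it is intron 1 and measures 1054 bases. The retained-intron transcript Egfl7-206 holds the hairpin in its exon 4. It also lies in an intron of Gm20532, an overlapping transcript of the same strand. The sequence of miR-126a-3p occurs in 1 of 1005 RefSeq hairpins and in 2 GENCODE transcripts, Mir126a-201 and Egfl7-206. Other places in the genome were not searched. Folded with RNAfold, the Mir126a hairpin had a minimum free energy of -31.2 kcal/mol, or -0.43 per base, and 40.3% of the RefSeq hairpins had a lower value per base. The Mir126b hairpin had -19.3 kcal/mol, or -0.33 per base, and 77.4% had a lower value, against a median of -0.41 per base.

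**Figure D1:**
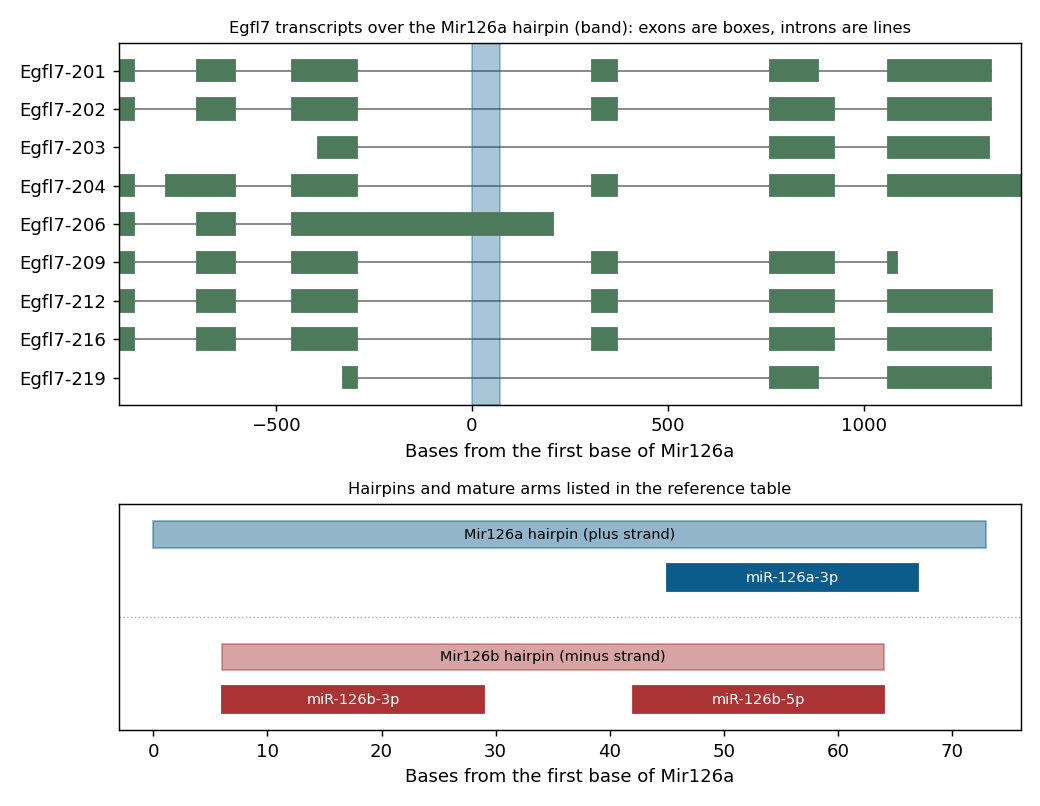
The upper panel shows the 9 Egfl7 transcripts that span the Mir126a hairpin, by distance in bases from its first base and limited to the stretch drawn, with exons as boxes, introns as lines and the hairpin as a band. The lower panel shows the hairpins and the mature arms listed by RefSeq: the hairpin falls in an intron of 8 transcripts and in an exon of Egfl7-206, and Mir126b lies wholly within Mir126a on the other strand.

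Mir126a was among the most abundant microRNA genes of the gland in both libraries, while Mir126b, read from the opposite strand of the same bases, was more than 3 orders of magnitude lower. On its own strand, Mir126a had 336351 counts in replicate 1 and 134678 counts in replicate 2. Scaled to 1000000 counts over all microRNA genes of a library (CPM), replicate 1 stood at 74830 CPM, with an exact Clopper-Pearson 95% interval of 74587 to 75074, and replicate 2 at 64786 CPM, with one of 64451 to 65121. The mean was 69808 ± 7103 CPM (SD, n = 2), or 6.98% ± 0.71 of all microRNA gene counts. Mir126a ranked 3 in each library.

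Mir126b had 51 counts in replicate 1 and 23 counts in replicate 2. That made 11.3 CPM in replicate 1, with an exact 95% interval of 8.45 to 14.9, and 11.1 CPM in replicate 2, with one of 7.01 to 16.6. The mean was 11.2 ± 0.20 CPM (SD, n = 2). The gap between the libraries was far inside the counting interval of either value, so the small SD does not measure the precision of so few counts. Mir126b ranked 290 among 696 genes with a count in replicate 1, and 301 among 624 in replicate 2. Both libraries placed it well above the limit that a count of 0 allows, which is 3 counts, or 0.667 CPM for replicate 1 and 1.44 CPM for replicate 2. All intervals and limits cover counting error only, since PCR copies cannot be recognised.

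Within the pair, Mir126a exceeded Mir126b 6595-fold in replicate 1 and 5856-fold in replicate 2, a mean of 6225 ± 523 (SD, n = 2). Of the pair's own-strand counts, Mir126b held 0.0152% in replicate 1, where the exact 95% interval runs between 0.0113 and 0.0199, and 0.0171% in replicate 2, where it runs between 0.0108 and 0.0256. Each share lies inside the interval of the other library, so a difference between them was not detectable at this depth.

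**Figure D2:**
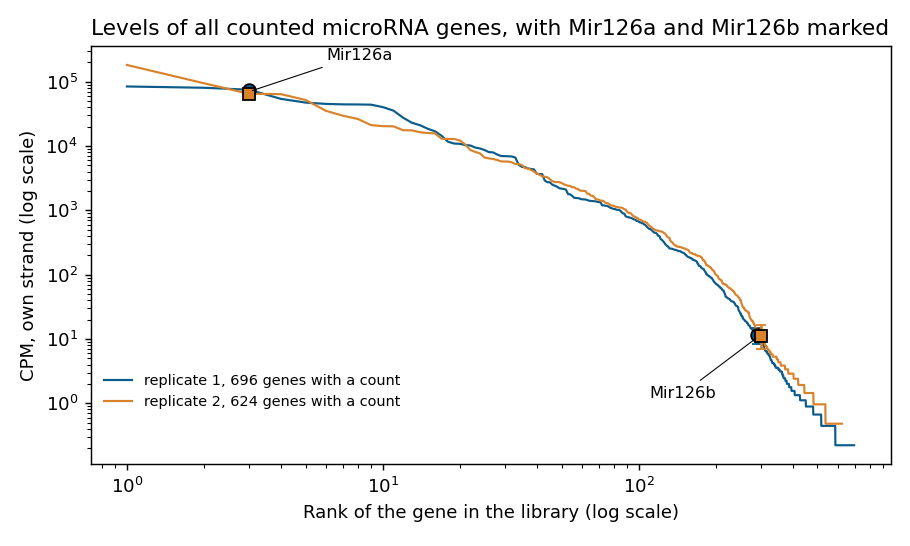
CPM on the own strand is plotted against the rank of each gene in its library, both on log scales, for replicate 1 (circles on the blue line) and replicate 2 (squares on the orange line), with exact 95% counting intervals for the marked genes. Mir126a sits at rank 3 in both libraries and Mir126b at ranks 290 and 301, near 11 CPM.

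The file of replicate 1 accounts for 12289288 reads and assigns 36.6% of them (4494857) to a microRNA gene on its own strand, and that of replicate 2 accounts for 10323816 reads and assigns 20.1% (2078824). In replicate 1, 29.8% of the reads mapped to several places and stand outside all levels given here, and in replicate 2 it was 21.5%. MicroRNAs with identical copies at several loci may rank too low beside Mir126a for that reason. Whether CAST/EiJ alleles change mapping at this site was not tested. The files hold microRNA genes only, so the tissue label was not checked against genes of steroid synthesis.

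Each read of the pair can be followed through the 3 columns of the files. The opposite-strand count at Mir126b was 336343 in replicate 1 and 134674 in replicate 2, which is the own-strand count of Mir126a less 8 reads and less 4 reads. The opposite-strand count at Mir126a was 51 in replicate 1 and 23 in replicate 2, exactly the own-strand counts of Mir126b. The same reads thus stand once in each gene's own-strand column and once more as opposite-strand counts of the other gene.

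In the column that ignores strand, Mir126a kept 8 counts in replicate 1 and 4 in replicate 2, and Mir126b had 0 in both. These 8 and 4 are the same numbers as the reads of Mir126a that the opposite-strand column of Mir126b lacks. The pair lost 336394 counts in replicate 1 and 134697 in replicate 2 when strand was ignored. The files list 795347 and 402881 reads there as ambiguous between genes, in replicates 1 and 2, so the loss from this pair was as large as 42.3% and 33.4% of them. On the own strand no read was listed as ambiguous. With strand ignored, a gene of rank 3 thus stood at 2.16 CPM in replicate 1 and at 2.39 CPM in replicate 2.

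**Figure D3:**
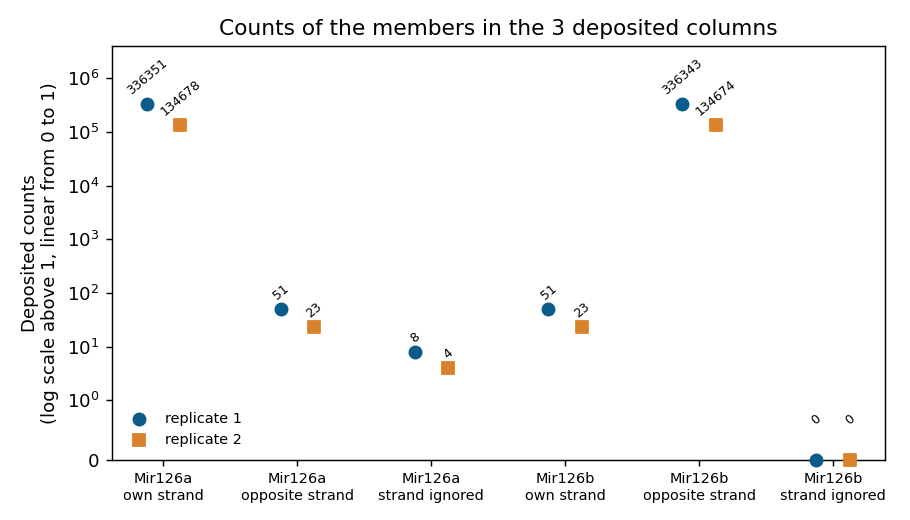
Deposited counts of Mir126a and Mir126b on the own strand, on the opposite strand and with strand ignored are shown for replicate 1 (circles) and replicate 2 (squares), on a log scale above 1. The own-strand points of each gene stand level with the opposite-strand points of the other, and both genes nearly vanish when strand is ignored.

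GENCODE M21 holds 32 pairs of microRNA genes that overlap on opposite strands, and in 19 of them the higher gene had at least 100 counts in both libraries. The Mir126 pair was one of few in which the lower gene was counted in both libraries. In 13 of the 19 pairs the lower gene had 0 counts in both. The share of the lower gene was below 1% of the pair in both libraries in 17 pairs, the Mir126 pair included. The exceptions were Mir337 with Mir3544 of the imprinted Dlk1-Dio3 region and Mir338 with Mir3065. Mir3544 held 1.15% of its pair in replicate 1 and 3.98% in replicate 2, and Mir3065 held 3.06% in replicate 1 and 4.80% in replicate 2. The share of Mir126b was smaller than those of 4 pairs and larger than those of 14, on the mean of the libraries. Those 4 also include Mir299b, with 2 and 1 counts beside Mir299a in replicates 1 and 2, and Mir3074-2, with 0 and 1 counts beside Mir24-2. The intervals of Mir299b and Mir3074-2 overlap that of Mir126b in both libraries, so their order beside it is not resolved.

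The best sampled of the pairs with no count was Mir378a, which lies in an intron of Ppargc1b and whose antisense partner is Gm25301. Gm25301 had 0 counts beside 242437 of Mir378a in replicate 1 and 0 beside 196184 in replicate 2, which allows a share of up to 0.00124% and 0.00153%. Both limits are below the interval for Mir126b. The same held for Gm25927 opposite Mirlet7e, with limits of 0.00646% in replicate 1 and 0.00820% in replicate 2. In the other 11 pairs with no count, among them Mir451a with Mir451b, Mir30e with Mir30f, Mir191 with Gm24083 and Mir142 with Mir142b, a share as small as that of Mir126b was not detectable at the depth of at least 1 library. Mir497b had 1 count beside Mir497 in replicate 1, a share of 0.0249%, and 0 in replicate 2. Its intervals also overlap those of Mir126b, so its place among the smaller shares is not resolved.

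**Figure D4:**
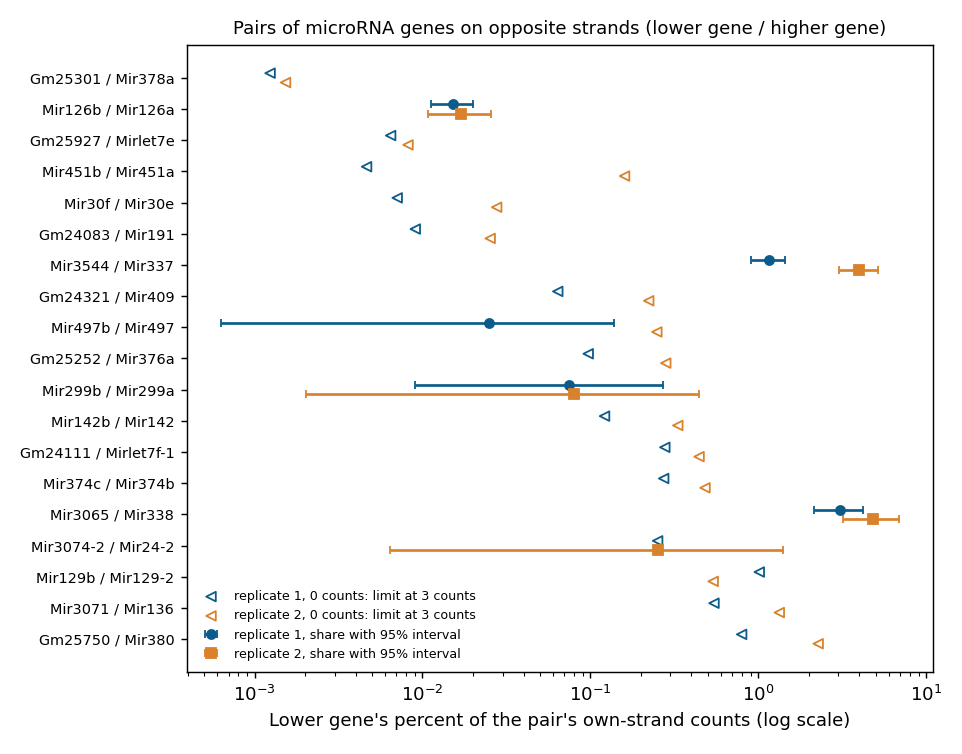
For each of the 19 opposite-strand pairs, the lower gene's percent of the pair's own-strand counts is plotted on a log scale, for replicate 1 (circles) and replicate 2 (squares) with exact 95% intervals, with open triangles at the limit that 0 counts allow. The Mir126 pair has narrow intervals near 0.016%, above the limits for Gm25301 and Gm25927 and below the shares of Mir3544 and Mir3065.

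Reads on the opposite strand were also looked for at genes with no microRNA annotated there. Of 100 such genes, each with 1000 or more counts per library, 90 had no opposite-strand count in replicate 1 and 93 had none in replicate 2. The share at Mir126a was 0.0152% in replicate 1 and 0.0171% in replicate 2. It was exceeded by that of 5 of the 100 genes in replicate 1 and of 3 in replicate 2. At a limit of 3 counts, even the 10846 own-strand counts of Mir30e in replicate 2 allow a share of up to 0.0277%. Most of the 100 genes had fewer counts than that in replicate 2. A lack of opposite-strand counts does not place such genes below Mir126a. The same holds in replicate 1 for genes with no more counts than that. Summed over the 100 genes, opposite-strand counts were 0.0126% of the total in replicate 1 and 0.0170% in replicate 2. Most of these came from Mir203, with 407 and 259 opposite-strand counts in replicates 1 and 2, where RefSeq lists a hairpin, Gm51289, on the other strand. Without Mir203, a choice made after its value was seen, the sum came to 0.00131% in replicate 1, between exact 95% limits of 0.000964 and 0.00174, and to 0.000931% in replicate 2, between 0.000521 and 0.00154. The share of Mir126b was 11.6 times that sum in replicate 1 and 18.3 times in replicate 2. These multiples depend on leaving out Mir203. With it kept, the sum was 0.0126% against a Mir126b share of 0.0152% in replicate 1, and 0.0170% against 0.0171% in replicate 2. Without Mir203, the largest part of the sum in replicate 1 came from Mir708. The sums therefore do not settle whether Mir126b stands above opposite-strand counts elsewhere. At Mirlet7b, whose own-strand count in each library was above that of Mir126a, 8 and 6 opposite-strand counts were found in replicates 1 and 2.

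In order of mean level, Mir126a ranked 4, with 2 genes just above it and a clear step below. In neither library were both of those genes above it. Mir378a was lower than Mir126a in replicate 1. Mirlet7g was lower in replicate 2, by little, at 63852 CPM against 64786 CPM. By the distance between log2(CPM + 1) values over the 2 libraries, the gene most like it was Mirlet7g, a let-7 gene in an intron of Wdr82, at a distance of 0.10. Mirlet7g stood at 80278 CPM in replicate 1 and at 63852 CPM in replicate 2. Mir378a followed at 0.72, Mir375, known from endocrine cells, at 0.83 and Mirlet7i at 1.16. Mir126a minus Mirlet7g came to -2257 CPM in mean level and Mir126a minus Mir378a to -4347 CPM, each smaller in size than the SD of the gene compared (11615 CPM for Mirlet7g and 28593 CPM for Mir378a), so their order is not resolved. It stood 21845 CPM above Mir375, the next gene below, at an SD of 7103 CPM for Mir126a and 5397 CPM for Mir375, and was the higher of the 2 in both libraries. A likeness over 2 libraries describes the level and little else.

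Mir126b had no such step beside it. The genes most like it were Mir412 at a distance of 0.12, Mir199a-2 at 0.14, Mir294 at 0.20 and Mir138-2 at 0.28. The genes next above it in mean level were Mir294 at 11.5 ± 1.45 CPM and Mir491 at 11.3 ± 4.38 CPM, and those next below were Mir3074-1 at 10.8 ± 5.12 CPM and Mir138-2 at 10.8 ± 2.35 CPM (SD, n = 2 each). Each differed from Mir126b by less than its own SD. Mir199a-2 and Mir138-2 each have another copy elsewhere, and a read that fits both places is not counted for them.

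Between the libraries, Mir126a moved little compared with most genes. After TMM scaling it was 1.31-fold higher in replicate 1 than in replicate 2, which is 0.39 on the log2 scale (95% counting limits 0.38 and 0.40). Of the 333 genes with 10 or more counts in each library, 242 (72.7%) had a larger ratio in one direction or the other. The exact binomial test, which takes counting as the only error, called it higher in replicate 1 (Benjamini-Hochberg adjusted p = 1e-300, the smallest value written). That test called 78.1% of the 333 genes, with 38.7% of the 333 higher in replicate 1 and 39.3% higher in replicate 2, so being called is the usual outcome at this depth. The edgeR exact test, with a dispersion taken from the same 2 libraries, did not call it (adjusted p = 0.988) and called 2 genes in all, or 0.601%. That dispersion already counts the difference between the libraries as noise. A gene that edgeR did not call, here or below, is therefore not shown to be equal in them. With library size in place of TMM the log2 ratio of Mir126a was 0.21, because TMM moves the median of all genes from -0.19 to -0.01.

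The log2 ratio of Mir126b was 0.22, within counting limits of -0.52 and 1.00, and the binomial test did not call it (adjusted p = 0.659). That span takes in the ratio of Mir126a, and with 74 counts in both libraries together it does not show that Mir126b was equal in them. Mir126a was thus called and Mir126b was not, by a binomial test that called most of all genes tested.

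**Figure D5:**
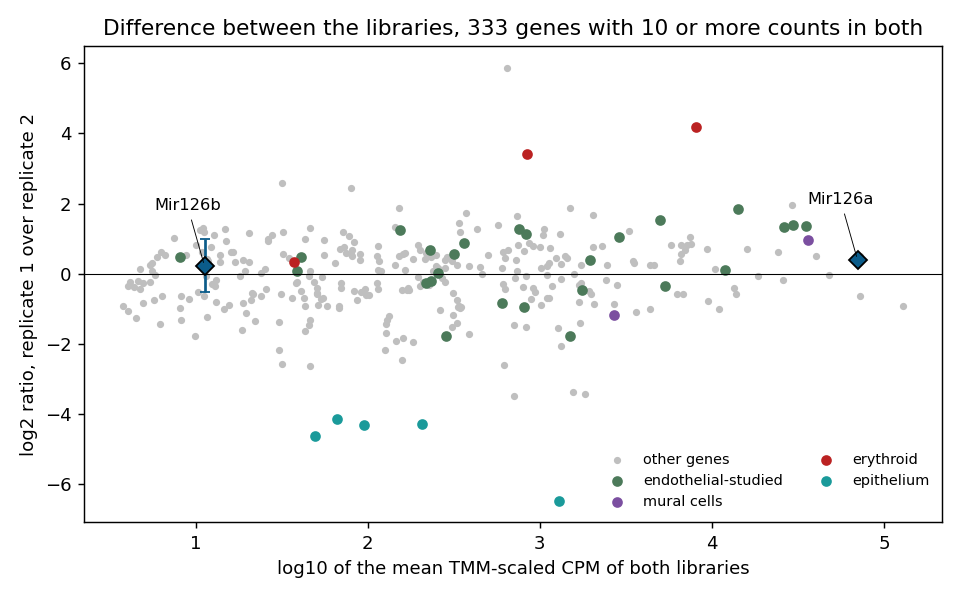
The log2 ratio of replicate 1 over replicate 2 after TMM scaling is plotted against the log10 of the mean TMM-scaled CPM for 333 genes, with lists of cell type and endothelial microRNAs in colour and Mir126a and Mir126b as diamonds with counting intervals. Mir126a lies close to the zero line at the high end of the scale, the interval of Mir126b crosses the line, and the erythroid genes Mir451a and Mir144 lie far above it and the miR-200 genes of epithelium far below.

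Mir126a alone held a large part of the assigned counts of microRNAs studied in endothelium. A list of 31 such genes, Mir126a included, took 25.5% of all counts in replicate 1 and 16.1% in replicate 2. Mir126a was 29.4% of the list in replicate 1 and 40.3% in replicate 2. Reads that map to several places are not counted. Members with copies at several loci, such as Mir24-1 and Mir24-2, may therefore be too low and the part of Mir126a too high. Its next members were Mir10a, of the Hoxb cluster, at 34139 ± 18451 CPM and Mir23a, of a cluster with Mir27a and Mir24-2 that acts in angiogenesis, at 28832 ± 16087 CPM (SD, n = 2 each). Mir126a was 1.59-fold above Mir10a in replicate 1 and 3.07-fold above it in replicate 2, and 1.86-fold and 3.71-fold above Mir23a in replicates 1 and 2. Its order above both was the same in each library.

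Of that list, 28 genes could be tested, of which the binomial test called 16 as higher in replicate 1 and 8 as higher in replicate 2, where it called 78.1% of all 333 genes. The edgeR exact test called none of the 28, but it called few of all 333 genes, so this does not set the list apart. The median log2 ratio was 0.44, against -0.01 over all 333 genes. With library size alone the counts were 14 and 10. The members ran from Mir132, induced by angiogenic growth factors, at a log2 ratio of -1.79, to Mir322 at 1.85. Mir10a and Mir23a had log2 ratios of 1.35 and 1.39, larger than the 0.39 of Mir126a. Their relatives in the list differed from them. Mir10b was at 0.12, and Mir27a and Mir24-2, of the cluster of Mir23a, were at -0.46 and 0.67. Mir155 stands in the leukocyte list as well, and most of these genes are also expressed outside endothelium, so the list is not a measure of that cell type.

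The vessel wall's mural cells, smooth muscle and pericytes, are marked by Mir143 and Mir145a. The summed share of Mir143, Mir145a and Mir145b was 4.66% in replicate 1 and 3.02% in replicate 2, against 7.48% and 6.48% for Mir126a with Mir126b in the same libraries. Mir126a stood 1.66-fold above Mir143 in replicate 1 and 2.47-fold above it in replicate 2, a mean log2 ratio of 1.02 ± 0.40 (SD, n = 2). In the binomial test Mir143 was higher in replicate 1 (log2 ratio 0.97), while Mir145a was the higher in replicate 2 (-1.17), so the mural genes split and Mir126a lay between them. In bulk tissue, more cells of a type and more of the RNA per cell cannot be told apart.

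Among markers of other cells, most tested genes had larger ratios between the libraries than Mir126a in one direction or the other, as had 72.7% of all 333 genes. Only Mir146, Mir486 and Mir375 had smaller ones. The largest were those of the erythroid genes Mir451a and Mir144 and of all 5 miR-200 genes of epithelium. The erythroid genes Mir451a, Mir144 and Mir486 summed to 1.58% of counts in replicate 1 and 0.109% in replicate 2, so that Mir126a had 4.72 counts per erythroid count in replicate 1 and 59.4 in replicate 2. The leukocyte and platelet genes, 6 in number and led by Mir146, Mir150 and Mir142, summed to 0.322% in replicate 1 and 0.390% in replicate 2. The binomial test, at its 78.1% of all genes called, called Mir451a (log2 ratio 4.18) and Mir144 (3.42) as higher in replicate 1 and did not call the remaining erythroid gene, Mir486 (0.33). Of 5 tested leukocyte genes it called 3 as higher in replicate 1 and 2, Mir146 and Mir150, as higher in replicate 2. The edgeR exact test, which called few of all genes tested, called none of the erythroid or leukocyte genes. Mir223, which is abundant in platelets and myeloid cells, had 455 counts in replicate 1 and 162 in replicate 2, a log2 ratio of 0.56. The miR-200 genes of epithelium, led by Mir200c, Mir200b and Mir429, summed to 0.00647% in replicate 1 and 0.358% in replicate 2. All 5 were higher in replicate 2, with log2 ratios from -6.47 for Mir200c to -4.14 for Mir141. Unlike the erythroid and leukocyte genes, Mir200c was also called by the edgeR exact test. The genes of pancreatic acinar cells, Mir217, Mir216b and Mir216a, summed to 0 counts in replicate 1 and 677 counts in replicate 2. The neuroendocrine genes Mir375, Mir7b, Mir7-1 and Mir7-2 summed to 4.88% in replicate 1 and 5.42% in replicate 2, and most of both sums was Mir375. Its log2 ratio was -0.04, while those of the other three were positive, up to 1.21 for Mir7b, and the median of the list was 0.54. The part of any of these lists in the level of Mir126a was not tested.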

How the data were processed

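MicroRNA sequencing of 2 adrenal gland libraries was analysed, grouped and numbered by the biological replicate number of the labels. The deposited values are raw read counts per microRNA gene in 3 columns (strand ignored, own strand, opposite strand), made on mm10 and GENCODE M21 according to a deposited note. For aligner and counting software the entry is "not given in the sources used here". Each of the 2202 identifiers was found in GENCODE M21. Reads assigned to no gene (63.4% of replicate 1 and 79.9% of replicate 2) were left out of library sizes.

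CPM are own-strand counts scaled to 1000000 per library. Shares have exact Clopper-Pearson 95% intervals. Ratios are replicate 1 over replicate 2 after TMM scaling for genes with 10 or more counts in each library. The test was the exact binomial test, two-sided, with Benjamini-Hochberg adjustment at 0.05. Values below 1e-300 were written as 1e-300. Quasi-likelihood tests need replicates within a group and were not run. The test was checked on simulated counts.

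Named genes were the members, for each the 4 nearest in log2(CPM + 1) and the 2 next above and 2 next below in mean CPM, the opposite-strand pairs with 100 or more counts of the higher gene in both libraries, and the 3 highest of each list. Other genes were named after their values were seen. The members and lists were chosen with earlier results of these data known. Alternatives covered the column, totals, scaling, count minimum, test, pseudocount and leaving out each library.

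Ratios were computed in R 4.3.3 (edgeR 4.0.16; DESeq2 1.42.0 for its size factors), folding with RNAfold 2.7.2, intervals with SciPy 1.17.1, tables with pandas 2.3.3 and NumPy 2.4.6 under Python 3.11.15, and figures with matplotlib 3.10.9.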

Additional observations from a re-analysis of the deposited data

How the results depend on the processing

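The columns and totals moved the levels most. With strand ignored, the mean level of Mir126a was 2.27 CPM, that of Mir126b 0 CPM and the share of Mir126b in the pair 0%, and the mean log2 ratio of Mir126a to Mir143 turned to -14.18, since opposite-strand overlap removes the reads of Mir126a but not those of Mir143. With Mirlet7b left out of the total, Mir126a stood at 80435 CPM and Mir126b at 13.0 CPM. Per 1000000 reads of all kinds they stood at 20207 and 3.19. With single libraries, the ranges were 64786 to 74830 CPM for Mir126a, 11.1 to 11.3 CPM for Mir126b, 0.0152% to 0.0171% for the share of Mir126b, and 0.73 to 1.30 for the log2 ratio of Mir126a to Mir143. The opposite-strand column of Mir126a gave the same share of Mir126b.

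The log2 ratio of Mir126a between libraries was positive under every scaling and count minimum tried, from 0.21 with library size to 0.56 with no minimum, and the binomial test called it each time. The edgeR exact test gave 0.39 without a call, and called 2 genes in place of 260 (17 at an unadjusted p under 0.05). The other alternatives called between 236 of 259 genes tested (a minimum of 50 counts) and 299 of 749 (no minimum). Library size called 112 as higher in replicate 1 and 149 as higher in replicate 2, against 129 and 131 with TMM. Mir126b was not called under any alternative that gave a value. With strand ignored neither gene, and with a minimum of 50 counts not Mir126b, was left to test.

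Of pairs with at least 20, 100 or 1000 counts of the higher gene, 17 of 25, 14 of 19 and 8 of 11 had a smaller share of the lower gene than the Mir126 pair. Many of these smaller shares come from pairs with no count of the lower gene. At 100 counts there were 13 such pairs. In 11 of them a share as small as that of Mir126b was not detectable in at least 1 library. The 4 nearest genes of each member were the same with a pseudocount of 0.1 CPM. Depth limits what can be said of Mir126b, with 51 and 23 counts in replicates 1 and 2.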
